A study of Mus musculus with 6 samples.

Results

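Compact exonic circRNAs, here exonic circular RNAs whose back-spliced ends lie less than 2000 bases apart in the genome, were followed in the striatum of HuD KO and WT mice. The members were every circRNA annotated as exonic, with an end minus start position under 2000, in the deposited table of circRNAs higher in HuD KO, the deposited table of circRNAs lower in HuD KO, or the study's list of circRNAs bound by HuD. This gave 330 circRNAs from 328 host genes, of 2334 exonic circRNAs with a position and of 14236 circRNAs on the array. Of the 330, 171 were listed as lower and 93 as higher in HuD KO, and 75 were on the HuD-bound list, of which 66 were on neither of the other lists. Positions were at hand only for circRNAs on these lists, so compact circRNAs that neither changed nor bound HuD were not analysed here.

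A circRNA forms when the spliceosome joins the end of an exon back to the start of the same or an earlier exon, which leaves a closed ring without free ends. A span under 2000 bases leaves room for a single exon or a few neighbouring exons, whereas longer spans usually cross large introns that are removed from the ring. Rings resist exonucleases such as RNase R, and many accumulate in neurons. HuD, encoded by Elavl4, is a neuronal RNA-binding protein known for binding AU-rich elements and stabilizing mRNAs.

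Each group held 3 adult C57BL6 mice labelled male, either HuD KO (Elavl4-/-) or their WT littermates, with 1 array per mouse. Total striatal RNA had been treated with RNase R before labelling, and a probe of 60 bases lay across each back-splice junction. The HuD-bound list came from immunoprecipitation of myc-tagged HuD from the striatum of other mice, which overexpressed it and were pooled. Levels are given as log2 of the background-corrected intensity minus the 75th percentile of the circRNA probes on the same array, so a level of 0 is the 75th percentile and not absence.

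The arrays went against their labels in 1 respect. The single annotated circRNA of Xist, the RNA that coats the inactive X chromosome of females, is a compact circRNA (chrX:103469299-103470921) and was well above background on all 3 WT arrays, at -1.27, -1.40 and -1.39, and on none of the HuD KO arrays. Its level was at least 15.0-fold higher in WT. Of 7 circRNAs of the Y-linked genes Uty, Eif2s3y, Kdm5d and Ddx3y, 6 were higher in HuD KO, and the compact Ddx3y circRNA was lower. The labels give the same sex for all 6 animals, so a difference in sex between the groups cannot be told apart from genotype. The arrays were also read in 3 scans, none of which held both groups, so scan and genotype cannot be told apart either. No circRNA of Elavl4 had a position, and the knockout itself was not checked here. Of 11 hosts that mark striatal neurons, Foxp1, Bcl11b and Arpp21 had circRNAs with a position, and their 7 circRNAs had mean WT levels from 0.43 to 4.71. Of 330 members, 317 were well above background on all 6 arrays, and between 84.0% and 96.7% of all circRNA spots were well above background per array. In such bulk tissue, fewer cells of a type and less RNA per cell cannot be told apart.

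Shown are the probes of the 4 largest listed falls among circRNAs well above background on all 6 arrays and of Rara, a bright circRNA listed lower, then those of the 3 largest listed rises, of Cdyl, the brightest circRNA listed higher, and of Pcmtd1, which was also HuD-bound. They let a reader see the junctions that carry the largest changes, were picked after their values were seen, and do not stand for the base composition of their lists. Positions are as deposited. The tables do not state the genome build, but 324 of the 326 members whose host was found in the RefSeq annotation of GRCm38 lay inside that host. Sequences run 5′ to 3′ as deposited, and capitals mark unbroken runs of 5 or more G or C bases. The first 5 were listed lower, from Map1a (chr2:121298596-121299046, plus strand), Ccdc155 (chr7:45195528-45196611, minus strand), Tcte1 (chr17:45534742-45535311, plus strand), Gbf1 (chr19:46271554-46272654, plus strand) and Rara (chr11:98950244-98950795, plus strand).
Map1a mmu_circRNA_34414: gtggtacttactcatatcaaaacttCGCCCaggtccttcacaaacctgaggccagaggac
Ccdc155 mmu_circRNA_41352: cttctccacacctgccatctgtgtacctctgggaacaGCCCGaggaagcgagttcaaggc
Tcte1 mmu_circRNA_30517: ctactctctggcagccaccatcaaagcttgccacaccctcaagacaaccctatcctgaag
Gbf1 mmu_circRNA_32697: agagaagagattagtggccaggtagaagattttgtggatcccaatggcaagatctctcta
Rara mmu_circRNA_24176: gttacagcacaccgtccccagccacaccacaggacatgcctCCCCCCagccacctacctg

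The next 5 were listed higher, from Dlc1 (chr8:36937559-36938758, minus strand), Pgm2l1 (chr7:100266664-100268306, plus strand), Cdyl (chr13:35815908-35816575, plus strand), Pcmtd1 (chr1:7120193-7120615, plus strand) and Xiap (chrX:42094366-42095272, plus strand).
Dlc1 mmu_circRNA_011180: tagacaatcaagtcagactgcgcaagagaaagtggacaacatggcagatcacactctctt
Pgm2l1 mmu_circRNA_41991: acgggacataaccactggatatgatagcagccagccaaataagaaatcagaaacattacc
Cdyl mmu_circRNA_003780: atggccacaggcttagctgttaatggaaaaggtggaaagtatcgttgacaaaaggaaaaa
Pcmtd1 mmu_circRNA_19595: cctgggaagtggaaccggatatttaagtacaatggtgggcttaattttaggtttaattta
Xiap mmu_circRNA_45429: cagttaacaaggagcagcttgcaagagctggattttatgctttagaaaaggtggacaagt

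The HuD-bound compact circRNAs were chosen without the HuD KO arrays, so their change could be tested. All 75 were tested, and 19 were higher and 8 lower in HuD KO at an adjusted p under 0.05 in limma with Benjamini-Hochberg adjustment over the 13445 circRNAs tested. The 19 make up 25.3% of the 75, against 26.2% of all circRNAs tested that were called higher. The 8 make up 10.7%, against 37.2% of all circRNAs tested that were called lower. Their median log2 change was 0.09, against -0.11 over all circRNAs tested, and 41 of the 75 had ranges that did not overlap between the groups, against 70.2% of all circRNAs tested. The 75 were brighter than the whole, with a median level of 0.10 against -1.30. In quartiles of HuD-bound exonic signal, from dim to bright, 13.6%, 21.1%, 31.25% and 38.9% of the compact circRNAs were called higher. Of all circRNAs of like signal, 17.4%, 33.1%, 42.5% and 51.0% were. For lower calls the shares were 18.2%, 5.26%, 12.5% and 5.56%, against 44.6%, 26.2%, 22.6% and 17.8%.

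Scaling set where the balance lay. Scaling to the array's control probes for circRNAs moved the median of all circRNAs by -0.71, and with it 7 of the 75 were called higher and 45 lower, while without scaling the median moved by 0.52 and the counts were 37 and 3. Changes below are relative to the 75th percentile.

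Map1a, which encodes a microtubule-associated protein of mature neurons, had the brightest compact circRNA probe of the WT arrays. Its circRNA stood at 6.99, 7.09 and 6.77 on the WT arrays and at 2.29, 2.47 and 3.17 on the HuD KO arrays. The ranges lay far apart, and it was the only HuD-bound compact circRNA on the deposited table of lower circRNAs. This is a 19.8-fold lower level (log2 change -4.30 ± 0.24, SE, n = 3 and 3, limma adjusted p = 2.7e-05). In the 21 alternatives run for it, the log2 change ranged from -5.01 to -3.79.

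The other falls among HuD-bound compact circRNAs were smaller, and the 3 largest of them came from dim spots. Ppp6c, the catalytic subunit of a serine/threonine phosphatase, gave a circRNA at -2.70, -2.95 and -3.32 in WT and at -4.89, -4.78 and -4.16 in HuD KO, a log2 change of -1.62 ± 0.24 (SE, limma adjusted p = 0.00079), with 2 of the 3 HuD KO spots well above background. The circRNA of Hnrnpab, a heterogeneous nuclear ribonucleoprotein, spanned 141 bases and was at -1.52, -1.61 and -2.29 in WT and at -3.22, -2.65 and -3.16 in HuD KO. Its ranges did not overlap and differed in the mean (log2 change -1.20 ± 0.25, SE, limma adjusted p = 0.0039). Sec62, part of the translocation machinery of the endoplasmic reticulum, had a circRNA at -2.47, -2.87 and -2.38 in WT and at -3.60, -3.93 and -3.76 in HuD KO, a log2 change of -1.19 ± 0.18 (SE, limma adjusted p = 0.00078). The Sec62 probe was among the 4 of 75 that held ATTTA, the core of many AU-rich elements, as shown with those of Pcmtd1, Mbnl2 and Cltc. Ids, an X-linked lysosomal sulfatase, had a circRNA that fell from 1.1, 0.82 and 0.84 to -0.11, -0.20 and 0.09, by 0.99 on the log2 scale (SE 0.15, limma adjusted p = 0.00089). The circRNA of Ddx3y, a Y-linked RNA helicase with a close X-linked relative, changed by -0.64 ± 0.23 (SE, limma adjusted p = 0.038) and lost its call in 12 of 20 alternatives, among them the removal of any HuD KO array or of WT replicate 3 (limma adjusted p from 0.059 to 0.097). With normexp background correction and quantile normalization the dim Ppp6c, Hnrnpab and Sec62 circRNAs changed by -0.17, -0.26 and -0.12 and were not called. Those of Camk2d and Gnai1, a kinase subunit and a G protein subunit, fell by 0.55 and 0.54, calls that were lost in 10 and 5 of 20 alternatives. Without the circRNAs of the X and Y chromosomes, 6 in place of 8 were called lower.

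The largest rise was that of Camk2a, the alpha subunit of the calcium/calmodulin-dependent kinase of synapses. Its circRNA was at 2.68, 2.36 and 2.42 in WT and at 4.39, 3.96 and 4.48 in HuD KO. All HuD KO arrays were above all WT arrays, with a log2 change of 1.79 ± 0.18 (SE, limma adjusted p = 0.00014). Camk2d, another subunit of the same kinase, had a compact HuD-bound circRNA that was lower. Pcmtd1, a gene of the protein-repair methyltransferase family, had a circRNA at 3.67, 3.45 and 3.37 in WT and at 5.65, 5.60 and 4.51 in HuD KO. HuD KO replicate 3 was the lowest of its group (log2 change 1.76 ± 0.30, SE, limma adjusted p = 0.0015). Its probe held ATTTA at 2 places, in capitals here.
Pcmtd1 mmu_circRNA_19595: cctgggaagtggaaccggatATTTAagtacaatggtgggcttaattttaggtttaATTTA
Sec62 mmu_circRNA_35204: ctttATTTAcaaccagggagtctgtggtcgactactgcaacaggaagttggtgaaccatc
Mbnl2 mmu_circRNA_28047: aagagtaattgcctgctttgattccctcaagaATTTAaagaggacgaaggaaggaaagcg
Cltc mmu_circRNA_23996: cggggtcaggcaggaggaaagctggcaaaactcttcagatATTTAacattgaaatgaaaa
The circRNAs of these 4 probes did not share a direction: Pcmtd1 rose, Sec62 fell, Mbnl2, a splicing regulator, changed by 0.35 (limma adjusted p = 0.086, and 0.025 without HuD KO replicate 3), and Cltc, the clathrin heavy chain, by -0.13 (limma adjusted p = 0.65). ATTTA was found in 5.33% of HuD-bound compact probes, 4.41% of other HuD-bound exonic probes and 4.16% of all 3056 probes with a sequence, and TTTTT in 4.0%, 2.81% and 5.14%. On the reverse strand ATTTA was found in 1.33%, 3.81% and 3.50%. The 60 bases cover only the junction, so motifs elsewhere in the rings were not searched.

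Actr2, a subunit of the actin-nucleating Arp2/3 complex, gave a circRNA that went from 1.45, 1.67 and 2.30 in WT to 3.77, 3.48 and 3.07 in HuD KO, a log2 change of 1.64 ± 0.26 (SE, limma adjusted p = 0.0011). That of Dync1h1, the heavy chain of cytoplasmic dynein, was at 0.29, 0.02 and 0.21 in WT and at 1.82, 1.65 and 1.66 in HuD KO, a log2 change of 1.53 ± 0.14 (SE, limma adjusted p = 9.4e-05). Dpysl2, a regulator of axon growth, had a circRNA higher by 0.96 (limma adjusted p = 0.0028). The circRNAs of Limk1 and Tppp, a kinase acting on cofilin and a tubulin-binding protein, were higher by 0.71 and 0.54, but that of Tppp lost its call in 10 of 20 alternatives, and in another, scaling on the control probes, its sign turned, to -0.17. Those of Dpysl2 and Limk1 lost their calls in 1 of 20 alternatives, the same scaling, with log2 changes of 0.25 and 0.009 (limma adjusted p = 0.25 and 0.96). In all, 5 of the 7 HuD-bound compact circRNAs from cytoskeleton and motor genes were called higher, Map1a was called lower and Dstn was not called, against 26.2% higher and 37.2% lower over all circRNAs tested. Their median log2 change was 0.71, against -0.11 over all circRNAs tested, and with 7 circRNAs nothing particular to these hosts can be read from the count.

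Ncald, a neuronal calcium sensor, gave a circRNA at -2.08, -2.17 and -1.57 in WT and -0.18, -0.19 and -0.68 in HuD KO (log2 change 1.59, limma adjusted p = 0.00051). Rab11fip4, an effector of recycling endosomes, gave one at 0.66, 0.59 and 0.88 in WT and 1.96, 1.99 and 2.35 in HuD KO (log2 change 1.39, limma adjusted p = 0.00027). The groups did not overlap in either. The circRNAs of Mef2c, a transcription factor of neuronal activity, and Tnrc18, a chromatin protein, rose by 1.14 and 1.07 on the log2 scale. These 8 circRNAs, from Camk2a to Tnrc18, were the HuD-bound compact circRNAs that the authors also listed as higher.

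**Figure D1:**
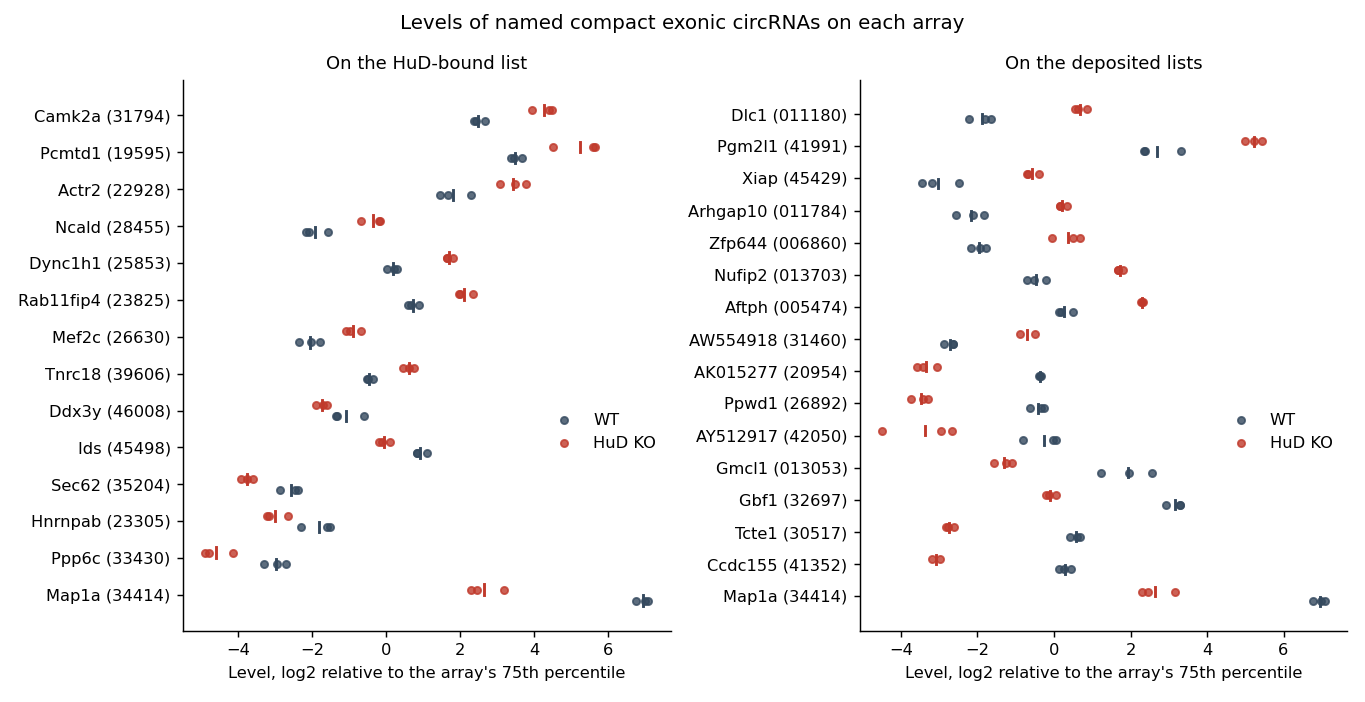
Level on each array (x axis, log2 scale, with the array's 75th percentile at 0) of named compact circRNAs, labelled by host and circRNA number, with the HuD-bound on the left and those with the largest changes among listed circRNAs on the right. Each point is 1 array, blue for WT and red for HuD KO, and the bar is the group mean. Map1a moved from a mean of 6.95 in WT to 2.64 in HuD KO, and no circRNA shown has overlapping groups.

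Several well-studied or bright HuD-bound compact circRNAs had small changes whose calls differed between single-array removals and other settings. The Zfp609 circRNA, formed from a long exon that includes the start codon of a zinc finger gene, was at 5.45, 5.66 and 5.90 in WT and at 6.12, 6.22 and 6.45 in HuD KO, a log2 change of 0.59 ± 0.17 (SE, limma adjusted p = 0.016). The call was lost in 6 of 20 alternatives, among them those without WT replicate 1 (limma adjusted p = 0.065) or 2 (limma adjusted p = 0.056), and in another, scaling on the control probes, the sign turned, to -0.11. The Rad52 circRNA, from a DNA repair gene, was at 4.71, 4.35 and 4.28 in WT and at 5.07, 4.87 and 4.68 in HuD KO (log2 change 0.43, limma adjusted p = 0.064), and was called without HuD KO replicate 3 or WT replicate 1 (limma adjusted p = 0.030 and 0.040). The Rere circRNA, from a nuclear receptor corepressor gene, was at 3.60, 3.79 and 4.49 in WT and at 4.11, 4.46 and 4.33 in HuD KO (log2 change 0.34, limma adjusted p = 0.25), and WT replicate 3 exceeded every HuD KO array. Without that array the change was 0.60 (limma adjusted p = 0.022). For Mbnl1, which encodes a splicing factor known to bind its own circRNA, the log2 change was 0.38 (limma adjusted p = 0.15), and 0.60 without HuD KO replicate 3 (limma adjusted p = 0.0074). The Bcl11b circRNA, from a transcription factor of striatal projection neurons, changed by -0.27 (limma adjusted p = 0.22), and by -0.44 without WT replicate 3 (limma adjusted p = 0.037).

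Longer HuD-bound exonic circRNAs, 499 in number, served for comparison. Of the 498 tested, 233 (46.8%) were called higher and 74 (14.9%) lower, with a median log2 change of 0.41. The median change of the compact circRNAs was 0.32 lower than that of the longer ones, a difference that scaling an array as a whole cannot move. Per array, the median level of the compact minus that of the longer HuD-bound circRNAs lay from -0.37 to -0.36 over the arrays of HuD KO mice and from -0.07 to 0.02 over those of WT mice. No test was made of this difference between lists of circRNAs.

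By signal, the gap lay in the 3 brighter quartiles. In the dimmest quartile of HuD-bound exonic circRNAs the medians were -0.16 for 22 compact and -0.11 for 122 longer circRNAs, whereas all circRNAs of that signal had a median of -0.35. In the next quartile they were 0.06 and 0.38, in the third 0.03 and 0.51, and in the brightest 0.31 and 0.68. All circRNAs of like signal had medians of 0.13, 0.31 and 0.48 in these 3 quartiles, above the compact median in each. In the brightest quartile 7 of 18 compact (38.9%) and 85 of 126 longer circRNAs (67.5%) were called higher, against 51.0% of all circRNAs of like signal. The median difference over 10 bands of signal was -0.16. Over the 4 quartiles it was -0.34. By span, the median change of HuD-bound circRNAs was 0.12 under 500 bases, 0.27 from 500 to 1000, -0.13 from 1000 to 1500 and 0.09 from 1500 to 2000. Past the limit it was 0.38 from 2000 to 3000, -0.02 from 3000 to 5000, 0.22 from 5000 to 10000, 0.53 from 10000 to 20000, 0.52 from 20000 to 50000 and 0.54 at 50000 or more, so the values from 3000 to 10000 lay within the range of the compact bands. By probe base composition, the medians were 0.18 compact and 0.49 longer with under 45% G and C, 0.11 and 0.37 from 45 to 50%, and 0.05 and 0.30 with 50% or more. Probes with 50% or more made up 32 of 75 compact (42.7%) and 96 of 499 longer ones (19.2%).

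**Figure D2:**
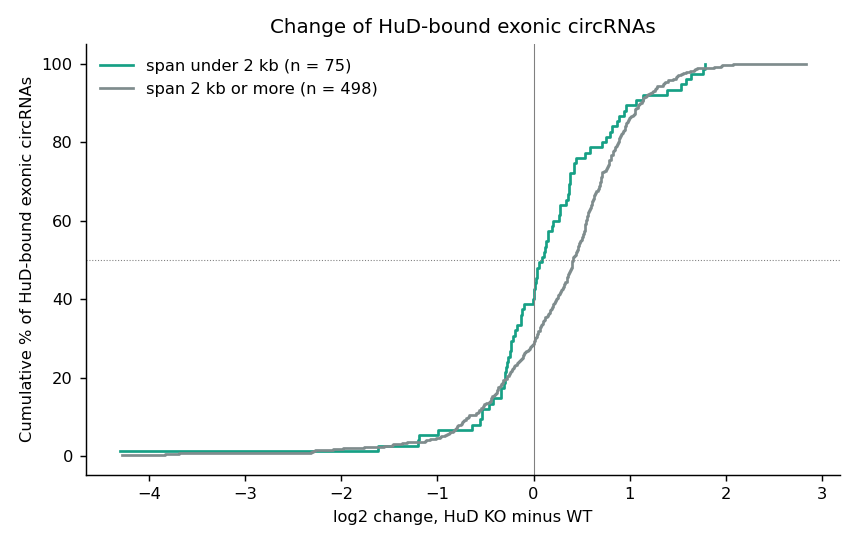
Cumulative share (y axis, %) of HuD-bound exonic circRNAs with a log2 change, HuD KO minus WT, up to the value on the x axis. The 75 compact circRNAs (green) cross the 50% line at 0.09 and the 498 longer ones (grey) at 0.41, while the curves run close together below -0.5.

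The remaining compact circRNAs came from the deposited tables, which the authors drew up on these same arrays at a fold change of 2, so their changes are described without a test. Among the 264 listed, the lower ones numbered 171 and the higher ones 93, or 35.2%. The 171 had a median log2 change of -1.85, also with the 3 that were not well above background in HuD KO at their bounds, and the other 168 ran from -5.11 to -0.62, while the 92 of the 93 higher ones with enough unflagged spots had a median of 1.26, from 0.83 to 2.58. The circRNAs of Xist, Parp9 and 4930593A02Rik, all listed lower, were not well above background on any HuD KO array, and their levels were at least 15.0-fold, 5.94-fold and 14.3-fold higher in WT.

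Among listed circRNAs well above background on all 6 arrays, the largest falls after Map1a came from hosts of several kinds. The circRNA of Ccdc155, a protein linking meiotic chromosomes to the nuclear envelope, was at 0.26, 0.45 and 0.14 in WT and at -3.19 and -2.97 in the 2 HuD KO arrays with an unflagged spot. Tcte1, a component of the axonemal dynein regulatory complex of sperm, had a circRNA at 0.67, 0.61 and 0.42 in WT and -2.83, -2.62 and -2.76 in HuD KO. Gbf1, an activator of Arf GTPases at the Golgi, gave a brighter spot, at 2.92, 3.30 and 3.29 in WT and -0.13, -0.22 and 0.04 in HuD KO. Their log2 changes were -3.36, -3.30 and -3.27, so each fell by a like amount. Gmcl1 followed at -3.23, AY512917 at -3.11, Ppwd1, a cyclophilin-like protein of the spliceosome, at -3.07 and AK015277 at -2.99.

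The bright members that were listed lower fell by less. Rara, the retinoic acid receptor alpha, had a circRNA at 3.93, 3.95 and 3.89 in WT and at 2.23, 2.28 and 2.25 in HuD KO, a spread of under 0.1 within each group and a log2 change of -1.67. Frmd3, of the band 4.1 family, gave 3.90, 4.05 and 4.08 in WT and 1.91, 1.70 and 2.64 in HuD KO (log2 change -1.93), and Lmf2, a lipase maturation factor, 4.25, 4.27 and 4.33 in WT and 2.68, 2.89 and 3.48 in HuD KO (log2 change -1.27). In both, HuD KO replicate 3 lay closest to WT.

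Rises were led by the circRNA of Dlc1, a GTPase-activating protein, at -1.81, -1.64 and -2.23 in WT and 0.87, 0.63 and 0.56 in HuD KO, a log2 change of 2.58. Pgm2l1, the brain enzyme that makes glucose bisphosphate, had a brighter circRNA at 2.35, 2.38 and 3.32 in WT and 5.43, 4.98 and 5.24 in HuD KO, a log2 change of 2.53. Xiap, an X-linked inhibitor of caspases, followed at 2.46. The groups lay apart in all 3 circRNAs. Arhgap10, another GTPase-activating protein, rose by 2.38, the zinc finger gene Zfp644 by 2.34, Nufip2, an RNA-binding partner of FMRP, by 2.19, Aftph, a clathrin-associated protein, by 2.03 and AW554918 by 2.02. Cdyl, a chromodomain protein that represses transcription, had the brightest circRNA among those listed higher, at 4.17, 4.04 and 4.64 in WT and at 6.64, 6.26 and 5.77 in HuD KO, a log2 change of 1.94.

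**Figure D3:**
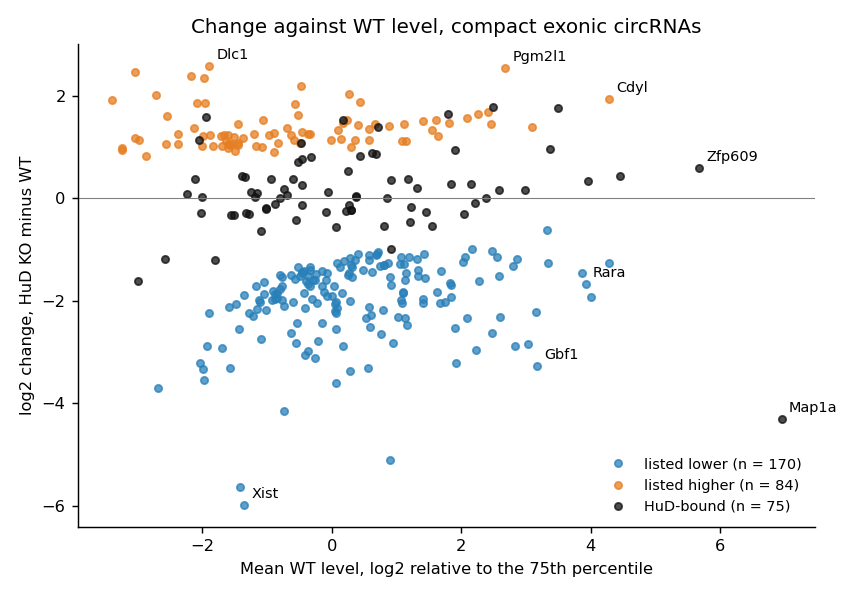
Log2 change, HuD KO minus WT (y axis), against the mean WT level (x axis, log2 relative to the 75th percentile) for 329 compact circRNAs, with HuD-bound ones in black and the others coloured by the deposited list they came from. The lowest point, Xist, was not well above background in HuD KO. The listed circRNAs leave a gap around 0 because of the listing threshold, the HuD-bound ones fill it, and Map1a stands alone at the bright end of the falls.

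The direction on the deposited lists went with span. Of the 1575 listed exonic circRNAs of 2000 bases or more, 856 (54.3%) were listed higher, against 35.2% of the compact ones. Within the compact circRNAs the share listed higher was 27.6% of 76 under 500 bases, 35.2% of 71 from 500 to 1000, 38.1% of 63 from 1000 to 1500 and 42.6% of 54 from 1500 to 2000. It was 33.8% from 2000 to 3000 and 32.3% from 3000 to 5000, below the band just under 2000 bases but within the range of the compact bands. It reached 72.9% of 221 at 50000 or more. On either side of the limit lay Dicer1 (1980, -1.85), Ctc1 (1991, -1.40) and Fxr2 (1996, 0.94) inside, and Cox18 (2007, -2.50), Zfyve9 (2024, 1.54) and Aff3 (2041, 0.84) outside, with the span and the log2 change in each case.

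**Figure D4:**
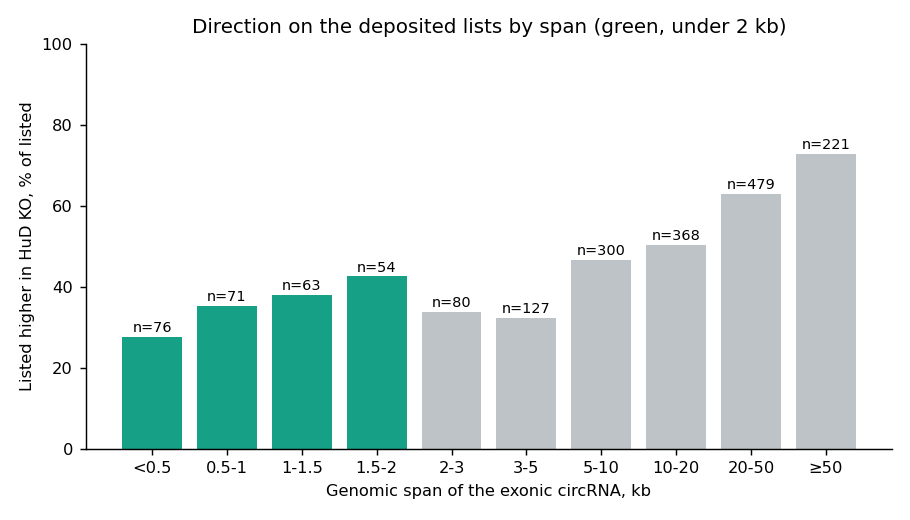
Share of listed exonic circRNAs that were listed higher in HuD KO (y axis, %) by genomic span (x axis, kb), with the number of circRNAs above each bar and the compact bands in green. The share rose from 27.6% below 0.5 kb to 72.9% at 50 kb or more, with 33.8% and 32.3% in the bands just past 2 kb.

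Probe base composition moved with the direction as well. The median G and C content of the 60-base probe was 50% for compact circRNAs listed lower and 43.3% for those listed higher, and 46.7% and 43.3% for longer ones. Of the compact circRNAs, 60% of 80 were listed higher at 40 to 45% G and C, 33.3% of 72 at 45 to 50%, 23.3% of 60 at 50 to 55% and 8.33% of 36 at 55 to 60%. Longer circRNAs gave 67.8%, 50.6%, 28.8% and 13.7% in the same bands. Runs of 5 or more G or C, a pattern that reads the same on both strands, were in 35.7% of probes of compact circRNAs listed lower, 20.4% of those listed higher, 37.3% of HuD-bound compact probes and 23.5% of all probes with a sequence. When longer circRNAs were weighted to the base composition of the compact ones, 44.4% were listed higher in place of 54.3%, which leaves the compact share of 35.2% below it. The part that hybridization or labelling plays in this was not tested.

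**Figure D5:**
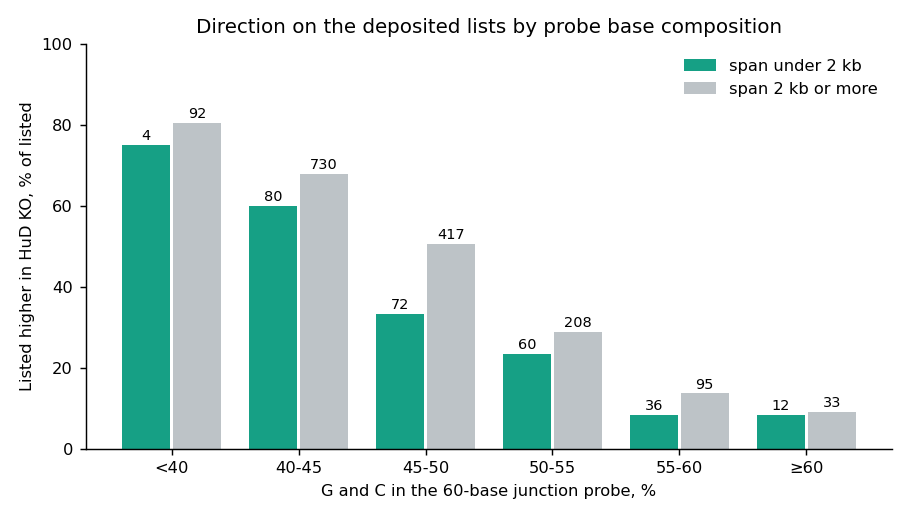
Share listed higher in HuD KO (y axis, %) by the percentage of G and C in the 60-base junction probe (x axis), for compact (green) and longer (grey) exonic circRNAs, with the number of circRNAs above each bar. The share fell from 60% to 8.33% for compact circRNAs between 40 to 45% and 55 to 60% G and C, and the green bar was the lower of each pair.

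Signal and source were set beside it. Across quartiles of mean signal, from dim to bright, 23.0%, 36.6%, 30.2% and 51.7% of the listed compact circRNAs were listed higher, against 56.6%, 56.6%, 51.5% and 52.7% of longer ones, so the gap was absent among the brightest. Of the 264, 46 were annotated from circBase, a public circRNA database, and 36 of these (78.3%) were listed higher, whereas 57 of the 218 (26.1%) annotated from a publication were. Longer circRNAs split the same way, with 86.3% of 205 and 49.5% of 1369. Weighted to the sources of the compact ones, 56.0% of longer circRNAs were listed higher.

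The WT signal of compact circRNAs had a median of -0.01, against -0.22 for the longer ones, a difference of 0.21. In HuD KO the order was the other way, with medians of -0.59 and -0.27. Among circRNAs listed lower the compact ones were the dimmer in WT (0.19 against 0.56). Among those listed higher they were the brighter (-0.83 against -1.21). The WT difference therefore depends on the mix of lists, whose part in it was not tested. Spots of different probes also differ in brightness for reasons other than RNA amount, so the difference cannot be read as RNA amount.

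Hosts seldom gave opposite directions. Adgre5, an adhesion receptor of leukocytes, had 2 compact circRNAs, both lower, by 2.32 and 3.61 on the log2 scale. Nhlrc2 had 2, higher by 1.0 and 1.14. No other host had more than 1. In 45 hosts a listed compact circRNA stood beside a listed longer one, and in 37 of these all were listed in the same direction, in 7 in opposite directions, and in Stk4 the longer ones were split. Over the lists as a whole 35.2% of compact and 54.3% of longer circRNAs were listed higher. How many hosts would agree from the make-up of the lists was not tested. Zfp644 had 3 longer circRNAs, higher by 1.69 to 2.35 beside its compact one at 2.34, and Ptpn4 had 4, higher by 1.1 to 2.22 beside 1.37. In the opposite cases, Kif13b, a kinesin, gave a compact circRNA at 1.04 and a longer one at -2.33, Kit, a receptor tyrosine kinase, 1.06 and -1.94, and Lrfn5, a synaptic adhesion molecule, -2.07 and 1.12. For 22 listed compact circRNAs the span overlapped another listed exonic circRNA on the same strand, and 20 of them shared its direction. No 2 members shared 20 bases of probe sequence, but sequence shared between the probes of a compact and a longer circRNA was not examined.

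The host lists were matched on gene symbols and do not hold every host of their function. They hold few HuD-bound circRNAs each, and counts of calls among these stand beside 26.2% called higher and 37.2% called lower over all circRNAs tested. Counts of listed compact circRNAs stand instead beside the 35.2% of all listed compact circRNAs that were listed higher. Grouped by host function, the 36 compact circRNAs of synapse and ion transport genes were evenly divided, with 14 listed lower and 14 higher. Of their 9 HuD-bound members only Camk2a was called higher, and Camk2d and Gnai1 were called lower, with a median log2 change of -0.23 over the 9. Slc27a1, a fatty acid transporter, was listed lower at -2.22 and Nlgn1, the postsynaptic adhesion protein neuroligin, higher at 1.44. The list of transcription factor hosts gave 20 circRNAs, 5 listed lower, among them Mef2d at -1.14, and 8 listed higher. The transcription factor hosts Rara and Tead2, whose compact circRNAs were both listed lower, were not in it. Of the 8 HuD-bound members of this list, Mef2c, Zbtb7a, Tcf25 and Zfp609 were called higher and none lower, with a median log2 change of 0.48 over the 8. The call was lost in 6 of 20 alternatives for Zfp609, 4 of 20 for Tcf25, 1 of 20 for Zbtb7a and 1 of 21 for Mef2c. For Tcf25 these included the test named in the study's methods (adjusted p = 0.060). Chromatin regulators gave 11, with 2 listed lower and 6 higher, and cytoskeleton and motor genes 13, with 4 lower, including Clip2 at -0.99, and 5 higher. Longer exonic circRNAs were listed lower in 68 and higher in 94 cases for synapse and ion transport, and in 16 and 28 for transcription factors. For chromatin regulators these counts were 18 and 35, and for cytoskeleton and motor genes 21 and 26.

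The 18 compact circRNAs of RNA-binding and RNA-processing genes held 2 listed lower and 4 higher, and of 12 on the HuD-bound list Fxr2 was called higher and Hnrnpab and Ddx3y lower. The Fxr2 call was lost with the test named in the study's methods (adjusted p = 0.051) and with control-probe scaling (limma adjusted p = 0.48). Over the 12 the median log2 change was 0.00, with Qk, a regulator of circRNA formation, at 0.00 (limma adjusted p = 0.99). Ubiquitin pathway hosts gave 8, with 3 listed in each direction, including Birc6 at 1.47, Klhdc4 at -2.82 and Fbxo39 at -2.34. The list of kinase and phosphatase hosts gave 10, with 1 listed lower and 4 higher, and did not hold Camk2a, Camk2d, Limk1 or Kit. Of its 5 HuD-bound members, Pik3r1, the regulatory subunit of PI3 kinase, was called higher, by 0.80 (limma adjusted p = 0.0055). Ppp6c was called lower, and the median log2 change over the 5 was 0.01. The Pik3r1 call was lost with control-probe scaling (log2 change 0.09, limma adjusted p = 0.63), and the Ppp6c call in 2 of 19 alternatives. Longer exonic circRNAs were listed lower in 26 and higher in 18 cases for RNA-binding and RNA-processing hosts. For ubiquitin pathway hosts these counts were 30 and 48, and for kinase and phosphatase hosts 24 and 63. The 214 circRNAs whose hosts were in none of these lists held 140 of the 171 lower and 49 of the 93 higher ones.

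Short rings also differed among themselves. The Pzp and Dnm1 circRNAs spanned 110 bases, that of Nudt3 111 and that of Atxn2l 122, so that a probe of 60 bases covers much of the ring. Pzp, an alpha-2-macroglobulin family member, was listed lower at -2.55, and Atxn2l, a stress granule protein, at -1.53. Dnm1 and Nudt3 were on the HuD-bound list and not called. Dnm1, the dynamin of synaptic vesicle recycling, was at 2.27, 2.20 and 1.96 in WT and 2.15, 2.42 and 2.68 in HuD KO, with overlapping groups and a log2 change of 0.27 (limma adjusted p = 0.21). Nudt3, a diphosphoinositol phosphatase, changed by -0.47 (limma adjusted p = 0.070), and was called lower without HuD KO replicate 1 (limma adjusted p = 0.043).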

How the data were processed

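The members, host lists and tests were chosen with earlier results of these data known. Per the labels, striatal RNA of 3 HuD KO and 3 WT mice was treated with RNase R and labelled for a 1-colour circRNA array. The deposited array files hold intensity per spot, background-corrected by Agilent Feature Extraction 11.0.1.1 and not normalized between arrays. The authors also deposited tables of higher and lower circRNAs with normalized log2 values, whose normalization is not stated, and with fold changes and p-values, which were not used. Columns of other samples numbered 0. Here log2 intensity was scaled to the 75th percentile of each array's circRNA probes, and 3 to 95 outlier spots per array were left out. Probes well above background on all 3 arrays of a group entered limma 3.58.1 (R 4.3.3) without covariates, with Benjamini-Hochberg adjustment over 13445 probes and calls at 0.05. On simulated data (13338 probes, 200 of them changed), 61 of 101 changes of 1 log2 unit and 92 of 99 of 2 log2 units were recovered, with 14 false calls. In the real data 26.2% of probes were called higher and 37.2% lower, a far larger share. The cutoff set by the adjustment differs with that share, so these rates need not hold for the real comparison. The number of arrays limits the precision. Replicates with the same number did not deviate together (correlations -0.01, -0.03 and -0.08).

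"At least" folds set the bright group's mean against, per array, the higher of the dim probe's level and the lowest level well above background. Circles were named by rule: the largest changes, brightest in WT, shortest spans, those nearest the span limit, hosts with several circles, well-known circles and the brightest per host list. Xist, Parp9, 4930593A02Rik, Kdm5d, Camk2d, Gnai1, Limk1, Tppp, Dstn, Cltc, Zbtb7a, Tcf25, Tead2, Uty, Eif2s3y and the hosts with opposite directions were named after their values were seen. 1 circRNA that this rule names is not reported here.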

Additional observations from a re-analysis of the deposited data

How the results depend on the processing

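Of the 20 other settings run on all circRNAs, median scaling called 30 HuD-bound compact circRNAs higher and 5 lower, with a median log2 change of 0.29. No scaling gave 37, 3 and 0.61, and scaling on the control probes 7, 45 and -0.62, where the Zfp609 and Tppp circRNAs turned to -0.11 and -0.17. Array weights called 29 higher, and scan as a random block called 5 lower. With spans under 1000, 3 were called lower, and with spans under 3000, 33 were called higher. Leaving out 1 array at a time gave 15 to 25 higher and 6 to 8 lower, a median change of 0.06 to 0.14 and a difference from the longer HuD-bound circRNAs of -0.35 to -0.28. That difference was -0.24 with normexp and the 75th percentile, -0.21 with normexp and quantile normalization, -0.24 with uncorrected intensity and quantile normalization, -0.24 and -0.23 with spans under 1000 and 3000 -0.34 within 4 and -0.16 within 10 bands of signal, and kept its sign in each. The replicate block called 17 higher and 6 lower. The share of listed compact circRNAs that were higher stayed between 31.3% and 36.7%. With spans under 1500 the WT signal difference was 0.14. Apart from Zfp609 and Tppp, no compact circRNA named here with a value that was called or listed changed its sign. The other causes of these shifts were not tested. The files hold no mean intensity, so normexp used the median intensity. The settings without X and Y circRNAs, within 4 bands of signal and the weighting of longer circRNAs were chosen after seeing the data. Spots near background limit the falls, which are bounds for 3 circRNAs.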

Other observations

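The compact circRNA of Kdm5d, a Y-linked histone demethylase, was at -3.15, -3.54 and -3.49 in WT and at -1.39, -1.44 and -1.62 in HuD KO, and was well above background on all 6 arrays. Among longer circRNAs, 1 of 3 from Uty was not well above background on any WT array and was at least 11.3-fold higher in HuD KO, and 1 of Eif2s3y was 3.56 higher on the log2 scale, with 1 of 3 WT spots well above background. Of the 11 compact circRNAs from the X chromosome, 6 were listed lower and 4 higher, and the remaining 1, from Ids, was HuD-bound and called lower.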
